A study of Mus musculus with 63 samples.

Results

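The 9 genes described here are Cldn5, Pecam1, Flt1, Tek, Cdh5, Ly6c1, Slco1c1, Abcb1a and Rgs5, a set commonly used to recognise brain vessel cells, and their rows were taken from the count files by symbol out of 55291 symbols. They were followed in organotypic entorhino-hippocampal tissue cultures of the mouse, in which a slice of hippocampus with its attached entorhinal cortex is kept on a membrane for weeks without blood flow. The cultures were prepared at postnatal day 3 to 5 and kept for at least 18 days. The study asked how synaptopodin, a protein of the spine apparatus in dendritic spines, bears on plasticity after partial denervation. Denervation was done by entorhinal cortex lesion (ECL), a cut of the perforant path that removes the entorhinal input to the dentate gyrus (DG) and to CA3, and lesioned cultures were taken 3 days later.

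Of the 63 RNA-seq libraries, 39 were made from DG or CA3 tissue dissected from a single culture. Among C57BL/6J (Synpo+/+) cultures there were 2 CA3 control, 3 CA3 ECL, 4 DG control and 7 DG ECL libraries. Among B6.129-Synpotm1Mndl/Dllr (Synpo-/-) cultures, a synaptopodin-deficient strain crossed back to C57BL/6J, there were 6 CA3 control, 6 CA3 ECL, 7 DG control and 4 DG ECL libraries. The other 24 came from lysates of pooled whole cultures, as an input aliquot and as the RNA recovered with an antibody against synaptopodin (coIP). There were 5 control and 5 ECL inputs and as many coIPs from Synpo+/+ cultures, and 2 inputs and 2 coIPs from Synpo-/- cultures whose lesion state the labels do not give. Total counts ranged from 14055930 to 46043990 in regional libraries, from 19844632 to 47572131 in inputs and from 11601154 to 53682143 in coIPs.

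Brain capillaries are lined by endothelial cells that seal the blood-brain barrier. Claudin-5 (Cldn5) closes their tight junctions, VE-cadherin (Cdh5) and PECAM-1 (Pecam1) hold neighbouring cells together, and P-glycoprotein (Abcb1a) pumps drugs back into the lumen. Flt1 is a receptor for VEGF, Tek (Tie2) is the receptor for angiopoietins, and Ly6c1 is a surface protein of brain endothelium that is also known from monocytes. Slco1c1, a thyroid hormone transporter of the barrier, is known in astrocytes as well. Rgs5, a regulator of G protein signalling, is used as a marker of pericytes and other mural cells, which wrap the endothelial tube.

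In GRCm38 with GENCODE M25 annotation, Rgs5 (ENSMUSG00000026678.10) lies at chr1:169655501-169695813, Tek (ENSMUSG00000006386.15) at chr4:94739289-94874976, Slco1c1 (ENSMUSG00000030235.17) at chr6:141524368-141570177, Cdh5 (ENSMUSG00000031871.9) at chr8:104101625-104144511 and Cldn5 (ENSMUSG00000041378.2), a gene of 1 exon, at chr16:18776847-18778262, all on the plus strand. Pecam1 (ENSMUSG00000020717.19) lies at chr11:106654217-106750628, Flt1 (ENSMUSG00000029648.13) at chr5:147561604-147726011 and Ly6c1 (ENSMUSG00000079018.10) at chr15:75044018-75048830, all on the minus strand. Abcb1a (ENSMUSG00000040584.8) lies on the plus strand at chr5:8660077-8748575, where an exon overlaps Gm42686 on the opposite strand, and the counting did not use strand.

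The RefSeq promoter table of GRCm38.p6 held an entry for 7 of the 9 members. The 250 bases before the RefSeq start are shown for the members with an entry among those called between regions or with the lesion, Rgs5 (chr1:169655251-169655500, plus strand), Slco1c1 (chr6:141524104-141524353, plus strand), Tek (chr4:94739039-94739288, plus strand), Cldn5 (chr16:18776597-18776846, plus strand) and Ly6c1 (chr15:75048838-75049087, minus strand, the first of its 2 entries). Capitals mark GGAA on either strand (TTCC where it is on the other strand), the core of the motif bound by ETS factors, a family that includes regulators of endothelial genes.
Rgs5: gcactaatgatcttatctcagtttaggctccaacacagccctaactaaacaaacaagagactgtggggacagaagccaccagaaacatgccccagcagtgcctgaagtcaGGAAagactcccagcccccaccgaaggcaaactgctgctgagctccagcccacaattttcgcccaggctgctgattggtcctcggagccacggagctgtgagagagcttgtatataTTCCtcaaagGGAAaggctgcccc
Slco1c1: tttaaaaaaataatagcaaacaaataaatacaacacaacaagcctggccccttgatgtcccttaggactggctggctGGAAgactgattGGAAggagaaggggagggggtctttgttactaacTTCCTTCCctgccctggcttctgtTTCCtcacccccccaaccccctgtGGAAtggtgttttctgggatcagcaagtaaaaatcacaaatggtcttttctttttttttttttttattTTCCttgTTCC
Tek: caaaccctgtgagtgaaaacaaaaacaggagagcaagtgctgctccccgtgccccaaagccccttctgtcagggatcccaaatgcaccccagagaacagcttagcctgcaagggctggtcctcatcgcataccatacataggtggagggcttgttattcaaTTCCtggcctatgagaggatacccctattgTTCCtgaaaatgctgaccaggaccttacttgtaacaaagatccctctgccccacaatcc
Cldn5: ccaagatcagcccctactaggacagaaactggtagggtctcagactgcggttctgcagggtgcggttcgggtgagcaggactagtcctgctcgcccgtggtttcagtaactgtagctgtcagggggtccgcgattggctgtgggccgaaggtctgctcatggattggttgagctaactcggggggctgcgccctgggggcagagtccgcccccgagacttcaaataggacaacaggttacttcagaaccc
Ly6c1: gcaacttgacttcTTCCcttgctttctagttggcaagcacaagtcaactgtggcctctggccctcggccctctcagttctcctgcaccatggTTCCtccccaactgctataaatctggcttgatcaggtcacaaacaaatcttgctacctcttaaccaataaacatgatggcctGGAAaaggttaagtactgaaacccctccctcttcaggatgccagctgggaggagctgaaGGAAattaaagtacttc
GGAA was present 3 times before Rgs5, the nearest match 14 bases before the start, 8 times before Slco1c1, the nearest 4 bases before it, and 2 times before Tek, 59 and 89 bases before it. It was present 4 times before Ly6c1 and not at all before Cldn5. These letters are common: 93.4% of 32817 promoter windows of this length held at least 1 match, with a median of 3. GC content was 53.6% before Rgs5, 42.8% before Slco1c1, 51.2% before Tek, 59.6% before Cldn5 and 48.4% before Ly6c1, against a median of 52.4% over all windows.

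Several libraries stood apart from their groups. In Synpo+/+ DG ECL replicate 5, Prox1, the defining transcription factor of dentate granule cells, was at 15.5 CPM (counts scaled to a common library size with TMM factors), while the other 21 DG libraries had 120 to 217 CPM and the 17 CA3 libraries 12.7 to 44.0 CPM. The summed granule cell list (10 genes) was 86.8 CPM in it and 457 to 781 CPM in the other DG libraries. Ttr, a choroid plexus gene, exceeded 1000 CPM in Synpo+/+ DG ECL replicates 1 and 3 (2284 and 6010 CPM) and in Synpo-/- DG ECL replicate 2 (8529 CPM). The counts of Synpo itself showed no loss in regional libraries under the Synpo-/- label. In non-lesioned DG it had 41.0 to 69.3 CPM in them and 19.1 to 24.5 CPM in those labelled Synpo+/+, and in non-lesioned CA3 30.5 to 49.2 against 25.8 and 25.9 CPM, so that the libraries labelled deficient were higher without overlap. After ECL the ranges overlapped (32.8 to 40.9 against 23.1 to 38.4 CPM in DG, 35.3 to 45.4 against 34.5 to 36.4 CPM in CA3). What part of the gene the allele removes is not given in the sources used here, and Synpo-/- below means only that a library carries this label.

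Rgs5 and Slco1c1 made up most of the reads of the set. Over the 39 regional libraries Rgs5 took 73.4% and Slco1c1 16.1% of the counts on the 9 genes, which together held 0.00552% to 0.0254% of all counts. The share of Rgs5 was 78.8% in DG and 54.4% in CA3, and that of Slco1c1 was 14.1% and 23.1%. Per kilobase of exon, the mean level was 22 ± 13.6 CPM (SD, n = 39) for Rgs5, 4.32 ± 1.12 for Slco1c1, 0.977 ± 0.522 for Cldn5, 0.601 ± 0.446 for Ly6c1, 0.517 ± 0.124 for Flt1, 0.396 ± 0.161 for Tek, 0.315 ± 0.172 for Cdh5, 0.242 ± 0.11 for Pecam1 and 0.155 ± 0.0931 for Abcb1a. Only the steps from Rgs5 to Slco1c1 and from Slco1c1 to Cldn5 exceeded the larger of the neighbours' SDs. This order held in CA3, while in DG the per-kilobase level of Ly6c1 (0.359 ± 0.194, SD, n = 22) was below those of Flt1 (0.485 ± 0.108) and Tek (0.389 ± 0.185). The endothelial members were detected in every regional library but at low counts: Flt1 had 53 to 292 counts a library, Tek 9 to 96, Cldn5 8 to 98, Pecam1 9 to 81, Cdh5 6 to 68, Abcb1a 5 to 55 and Ly6c1 2 to 69.

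The label of the set was checked on 30 further endothelial genes and on 20 further mural genes. The endothelial list summed to 69.8 to 132 CPM in regional libraries and the mural list to 52.9 to 97.1 CPM, and no gene of either list was at 0 in all of them. The 15 astrocyte markers summed to 6071 to 12357 CPM and the 15 microglia markers to 848 to 2673 CPM in the same libraries. The 12 genes of blood cells and monocytes summed to 8.78 to 40.2 CPM, and 1 of them was at 0 in all 17 CA3 libraries.

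**Figure D1:**
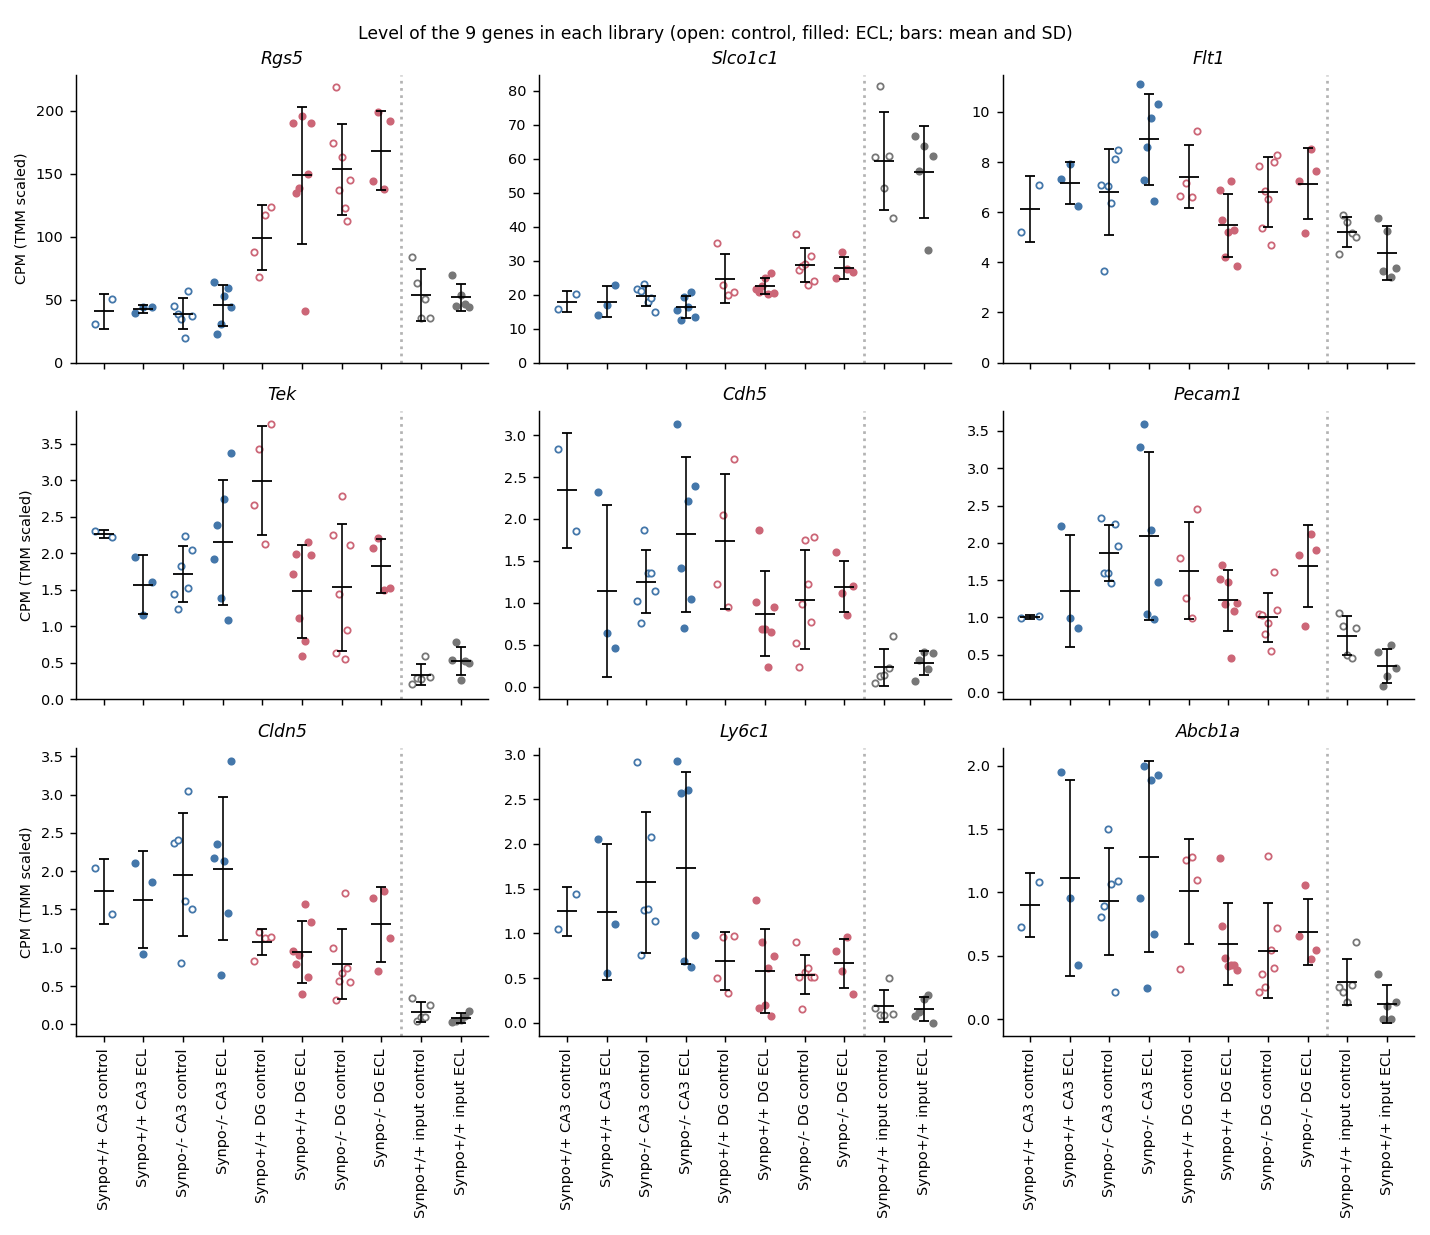
Level of each of the 9 genes (CPM after TMM scaling, 1 panel a gene) in every regional library and in the Synpo+/+ whole-culture inputs, which were scaled separately and stand right of the dotted line. Points are libraries (open for control, filled for ECL) and bars are the mean and SD; Rgs5 is at 68.2 to 219 CPM in all DG libraries but 1 and at 19.5 to 63.7 CPM in CA3.

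Rgs5 separated the regions. All CA3 libraries held 19.5 to 63.7 CPM (median 43.8, n = 17) and 21 of the 22 DG libraries 68.2 to 219 CPM (median 144). The remaining DG library, the one with a CA3 level of Prox1, had 40.8 CPM. Of the 8 group means, ordered from Synpo-/- DG ECL (168 CPM) down to Synpo-/- CA3 control (38.6 CPM), neighbours differed by more than the larger SD only at the step from Synpo+/+ DG control (99.0 CPM) to Synpo-/- CA3 ECL (45.6 CPM). For each of the other 8 members, no step between neighbouring groups exceeded the larger SD.

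In non-lesioned Synpo+/+ cultures, Rgs5 was at 30.9 and 50.7 CPM in CA3 and at 87.7, 68.2, 117 and 123 CPM in DG. The groups did not overlap, and the mean was 40.8 ± 14 (SD, n = 2) in CA3 and 99.0 ± 25.7 (SD, n = 4) in DG, a log2 fold change of 1.30 (SE 0.244, adjusted p 0.00543, edgeR quasi-likelihood test). Rgs5 was the only member called of 9 tested, where 5.39% of all 25656 genes were called. The call was lost (adjusted p 0.0661) without Synpo+/+ CA3 control replicate 1 and when all 8 regional groups shared a fit (adjusted p 0.0648).

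After ECL in Synpo+/+ cultures, Rgs5 was at 39.1, 43.8 and 44.4 CPM in CA3, and at 40.8 (lowest), 149 (median) and 196 CPM (highest) in DG. The means were 42.5 ± 2.89 (SD, n = 3) and 149 ± 54.2 (SD, n = 7), and the log2 fold change was 1.88 (SE 0.364, adjusted p 0.03). It was the only member called, against 2.05% of 24029 genes. Without the DG library that had a CA3 level of Prox1, the DG values were 135 to 196 CPM, no longer overlapped CA3, and gave a log2 fold change of 2.02 (adjusted p 4.22e-08). Leaving out any other single library kept the direction (log2 fold change 1.81 to 1.91) but lost the call (adjusted p 0.0548 to 0.166).

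In cultures labelled Synpo-/-, non-lesioned CA3 had 19.5 (lowest), 37.7 (median) and 56.7 CPM (highest) of Rgs5, and DG had 112, 145 and 219 CPM. The groups stood apart, with means of 38.6 ± 12.3 (SD, n = 6) and 153 ± 35.9 (SD, n = 7) and a log2 fold change of 2.10 (SE 0.186, adjusted p 1e-07). After ECL, CA3 had 22.7, 48.9 and 63.7 CPM (lowest, median and highest), and DG had 144, 199, 138 and 191 CPM. These groups did not overlap either, and the log2 fold change was 1.89 (SE 0.234, adjusted p 7.51e-05). In this comparison 7.37% of all genes were called higher in DG. Markers of other cells were among them, 9 of 15 microglia genes (median log2 fold change 0.61), 7 of 15 astrocyte genes (0.35), 6 of 15 fibroblast and meningeal genes (1.0) and 4 of 9 choroid and ependymal genes (1.72). Without the Ttr-rich library these were 9, 5, 3 and 0, and Rgs5 was at 1.80 (adjusted p 0.000368). After ECL in Synpo+/+ cultures, 1.54% of all genes were called higher in DG. All 15 fibroblast and meningeal genes tested had positive values there (median 1.04), and 2 were called. Their part in the Rgs5 difference was not tested. In this series of bulk samples, fewer cells of a type and less RNA per cell cannot be told apart.

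The other mural genes did not share one direction with Rgs5, and which cells carried the Rgs5 RNA was not tested. The 20 of them summed to 52.9 to 78.2 CPM (median 68.1) in DG and to 64.6 to 97.1 CPM (median 71.9) in CA3. In non-lesioned Synpo-/- cultures, 3 of the 18 tested were higher in DG and 5 lower, with a median log2 fold change of -0.07 (0.05 over all genes). Over all genes 13.1% were called higher and 12.5% lower. Higd1b, a pericyte gene, was at 0.19 ± 0.143 CPM (SD, n = 7) in DG and at 1.73 ± 1.23 CPM (SD, n = 6) in CA3 (log2 fold change -3.01, SE 0.503, adjusted p 0.000166). These DG libraries held 15967190 to 26931489 total counts, so the DG value of Higd1b rests on few counts. Mylk, the myosin light chain kinase of contractile cells, fell by 0.82 on the log2 scale (adjusted p 0.000141). Pdgfrb, a pericyte receptor with more counts, had overlapping ranges. It was at 3.24 ± 0.856 CPM (SD, n = 7, 43 to 99 counts) in DG and 3.81 ± 0.802 CPM (SD, n = 6, 55 to 127 counts) in CA3. After ECL in Synpo-/- cultures, 1 of 19 mural genes was higher in DG and 4 were lower, where 7.37% and 6.24% of all genes were, among them Higd1b (-2.95, adjusted p 0.000215) and Kcnj8 (-2.33, adjusted p 0.000371), a potassium channel subunit of pericytes. In Synpo+/+ controls 2 of 19 mural genes were higher in DG and 1 was lower (2.63% and 2.75% of all genes), 12 had negative values, and the median was -0.37 (0.02 over all genes). Ndufa4l2, a mitochondrial protein listed as a mural marker, was among the higher ones (log2 fold change 1.77, adjusted p 0.00358). After ECL in Synpo+/+ cultures it was the only mural gene called of 19 (1.21, adjusted p 0.0362). The list median was 0.02, and 2.05% of all genes were called. Without the Ttr-rich libraries no mural gene was called there, but 0 of 10 granule cell genes were called either (median log2 fold change 2.09). Once the library with a CA3 level of Prox1 was left out as well, 1 mural gene was higher and 4 were lower. In that fit 10 of 10 granule cell genes were higher.

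**Figure D2:**
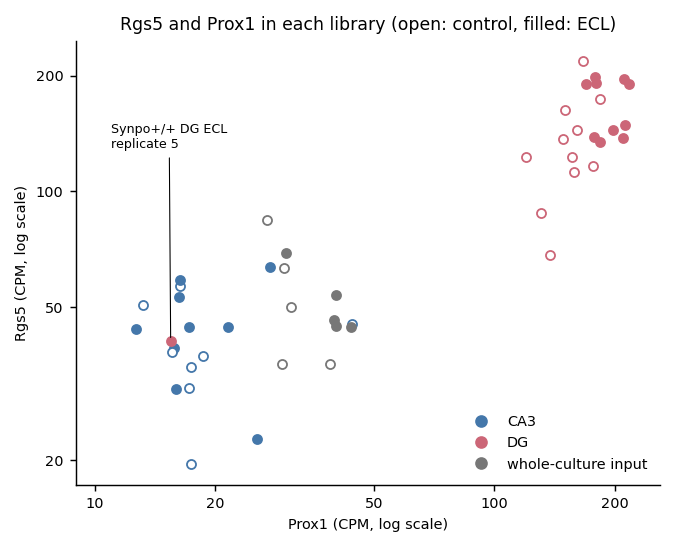
Rgs5 against Prox1 in each regional library and each Synpo+/+ whole-culture input (CPM, log scale on both axes; colour gives the tissue, open points are controls and filled points ECL). DG libraries lie at upper right and CA3 libraries at lower left, and Synpo+/+ DG ECL replicate 5 lies among the CA3 libraries with 40.8 CPM of Rgs5 and 15.5 CPM of Prox1.

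Slco1c1 was also higher in DG. In non-lesioned Synpo-/- cultures it had 15 (lowest), 20.1 (median) and 23.2 CPM (highest) in CA3, and 22.9, 28.3 and 37.8 CPM in DG. The ranges overlapped only at their edges, and the log2 fold change was 0.65 (SE 0.124, adjusted p 0.000609). After ECL the Synpo-/- CA3 libraries had 12.6 to 20.7 CPM and the DG libraries 24.8, 32.5, 27.6 and 26.7 CPM, without overlap (log2 fold change 0.79, SE 0.142, adjusted p 0.00163). In Synpo+/+ cultures the values were 17.9 ± 3.16 CPM (SD, n = 2) in CA3 and 24.6 ± 7.15 (SD, n = 4) in DG for controls, and 18.0 ± 4.56 (SD, n = 3) and 22.4 ± 2.35 (SD, n = 7) after ECL, and neither difference passed the test (log2 fold change 0.48, adjusted p 0.289, and 0.38, adjusted p 0.177). The summed astrocyte markers did not follow one direction: in Synpo-/- controls they were 8198 to 9433 CPM in CA3 and 6441 to 7568 CPM in DG, and after ECL 6221 to 9614 CPM in CA3 and 9692 to 12357 CPM in DG. Their part in the Slco1c1 difference was not tested.

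Cldn5, Ly6c1 and Pecam1 went the other way in one comparison. In non-lesioned Synpo-/- cultures Cldn5 had 0.795 (lowest), 1.99 (median) and 3.05 CPM (highest) in CA3 against 0.317, 0.669 and 1.71 CPM in DG, a fall of 1.22 on the log2 scale (SE 0.35, adjusted p 0.0141) between overlapping ranges. Ly6c1 had 0.758 to 2.92 CPM in CA3 and 0.155 to 0.907 CPM in DG, where only the highest DG library reached into the CA3 range (log2 fold change -1.43, SE 0.355, adjusted p 0.00527). Pecam1 had 1.46 to 2.33 CPM in CA3 and 0.55 to 1.61 CPM in DG (log2 fold change -0.77, SE 0.247, adjusted p 0.0277), and this call was lost without CA3 replicate 1 or 5, without DG replicate 3, or with no filter on low counts (adjusted p 0.0555 to 0.0817).

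With Rgs5 and Slco1c1, 5 of 9 members were called in non-lesioned Synpo-/- cultures, where the background was 25.5% of 21408 genes. After ECL in Synpo-/- cultures 2 of 9 were called, Rgs5 and Slco1c1, where the background was 13.6% of 22767 genes. Cldn5, Ly6c1 and Pecam1 kept negative log2 fold changes there of -0.66, -1.37 and -0.30, with adjusted p of 0.325, 0.081 and 0.704. In Synpo+/+ cultures Cldn5 was at -0.68 in controls (adjusted p 0.419) and -0.71 after ECL (adjusted p 0.345), and Ly6c1 at -0.85 (adjusted p 0.454) and -1.03 (adjusted p 0.402). Pecam1 had a positive value in Synpo+/+ controls, with 1.0 ± 0.0223 CPM (SD, n = 2) in CA3 and 1.63 ± 0.646 CPM (SD, n = 4) in DG (log2 fold change 0.72, adjusted p 0.467), and was at -0.07 after ECL (adjusted p 0.943). The log2 fold changes of Flt1, Tek, Cdh5 and Abcb1a lay between -0.90 and 0.42 in the 4 region comparisons and none of them was called.

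Other genes of the vessel lists divided in the same comparison, where 13.1% of all genes were called higher in DG and 12.5% lower. Of 26 further endothelial genes tested in non-lesioned Synpo-/- cultures, 1 was higher in DG (Podxl, an apical glycoprotein, log2 fold change 0.68) and 6 were lower, Egfl7, a matrix protein secreted by endothelium, among them (-0.53, adjusted p 0.00752). Their median was -0.19, against 0.05 over all genes. The whole endothelial list summed to 69.8 to 105 CPM (median 81.4) in DG and to 88.7 to 132 CPM (median 101) in CA3. Of 26 barrier junction and transport genes, 4 were higher and 4 lower in DG, among them the Wnt effector Lef1 (log2 fold change 0.96, adjusted p 3.33e-05) and the membrane protein Itm2a (-1.10, adjusted p 3.72e-05). Of 24 genes of the VEGF, angiopoietin and tip cell list, 3 were higher and 5 lower. The ligand Vegfa was higher in DG (30.5 ± 3.71 against 15.3 ± 2.86 CPM, log2 fold change 1.10, adjusted p 4.6e-07) and its co-receptor Nrp1 lower (-0.87, adjusted p 1.18e-06). In the same libraries 12 of 15 oligodendrocyte genes, 7 of 15 astrocyte genes and 2 of 15 microglia genes were lower in DG, and of 15 fibroblast and meningeal genes 4 were higher and 1 was lower. Their part in the values of the 9 genes was not tested.

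**Figure D3:**
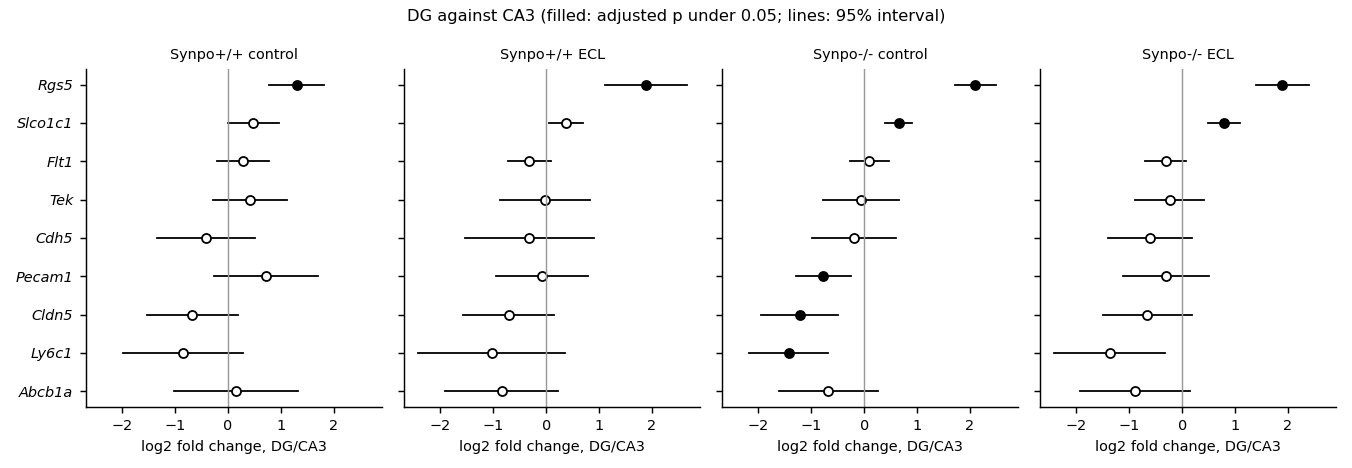
Difference between DG and CA3 of the 9 genes (log2 fold change, positive where DG is higher) in the 4 combinations of genotype and lesion; circles are edgeR estimates, filled where the adjusted p is under 0.05, and lines are 95% intervals. Rgs5 is to the right of 0 in all 4 panels, at 1.30 to 2.10, while Cldn5 and Ly6c1 are to the left of 0.

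With all libraries in the fit, 1 member was called after ECL in 1 of 5 comparisons, Tek in Synpo+/+ DG. Which members were called there depended on ECL replicate 5, the library with a CA3 level of Prox1. Without it Tek was not called (adjusted p 0.0505), while Rgs5 (log2 fold change 0.71, adjusted p 0.00736) and Flt1 (-0.56, adjusted p 0.0416) were. In the DG of Synpo+/+ cultures, Tek was at 2.66, 3.43, 2.13 and 3.77 CPM in controls and at 0.586 (lowest), 1.72 (median) and 2.16 CPM (highest) after ECL. The ranges met at 2.13 and 2.16 CPM, and the mean fell from 3.0 ± 0.744 (SD, n = 4) to 1.48 ± 0.636 (SD, n = 7), a log2 fold change of -1.05 (SE 0.331, adjusted p 0.0494). These were 16 to 56 counts a library after ECL and 45 to 86 in controls. The direction was negative in all 21 alternatives, with an adjusted p of 0.019 to 0.147. The call held in 10 of them. It was lost without any 1 of the 4 controls and without ECL replicate 1, 3, 4 or 5. It was also lost when the libraries rich in Ttr were left out (adjusted p 0.0899), when the library with a CA3 level of Prox1 was left out with them (log2 fold change -0.87, adjusted p 0.126), and among genes with a mean normalised count over 300, where Tek is not kept.

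Of the 9 members, 8 had negative log2 fold changes in this comparison and Tek alone was called, where 12.2% of 23720 genes were called. The median over the members was -0.45, against -0.00 over all genes. Cdh5 had 1.22, 2.05, 0.945 and 2.72 CPM in controls and 0.239 (lowest), 0.692 (median) and 1.87 CPM (highest) after ECL (log2 fold change -1.04, SE 0.429, adjusted p 0.109). Flt1 had 6.65, 7.17, 6.62 and 9.25 CPM in controls and 3.85, 5.28 and 7.24 CPM (lowest, median and highest) after ECL (-0.47, SE 0.179, adjusted p 0.0903). Both ranges overlapped, although Flt1 passed without ECL replicate 5 (-0.56, adjusted p 0.0416) and Cdh5 without ECL replicate 2 (-1.36, adjusted p 0.046). Abcb1a was at -0.80 (adjusted p 0.197), Pecam1 at -0.45 (adjusted p 0.358), Ly6c1 at -0.28 (adjusted p 0.764), Cldn5 at -0.21 (adjusted p 0.702) and Slco1c1 at -0.16 (adjusted p 0.451).

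Rgs5 was the one member with a positive value (log2 fold change 0.56, SE 0.309, adjusted p 0.211). Its controls had 68.2 to 123 CPM, and the lesioned libraries 135 to 196 CPM apart from the one with a CA3 level of Prox1 (40.8 CPM). Without that library the groups did not overlap and the log2 fold change was 0.71 (adjusted p 0.00736), and with the Ttr-rich libraries left out as well it was 0.73 (adjusted p 0.0263). The mural list summed to 61.9 to 76.8 CPM in controls and 52.9 to 78.2 CPM after ECL, and of its 17 genes tested only Cnn1, the calponin of smooth muscle, was called (lower, -1.12, adjusted p 0.00611).

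Of 26 further endothelial genes tested, 19 had negative log2 fold changes after ECL and 7 positive ones, with a median of -0.30 (-0.00 over all genes). Of these, 3 were called lower and 1 higher, where 4.31% and 7.86% of all genes were. Without the Ttr-rich libraries 1 was lower and 1 higher, and 2 and 1 without the library with a CA3 level of Prox1 as well. Tie1, the receptor that pairs with Tek, was at 1.0 ± 0.106 CPM (SD, n = 4) in controls and 0.37 ± 0.138 (SD, n = 7) after ECL (log2 fold change -1.43, adjusted p 0.0179). These were 17 to 29 counts a library in controls and 3 to 17 after ECL. Myct1, a membrane protein of endothelium, was lower too (-1.12, adjusted p 0.0341), while Ecscr, listed as an endothelial surface protein, rose from 2.14 ± 0.743 to 5.48 ± 1.02 CPM (1.32, adjusted p 0.00245). Which cells carried the Ecscr RNA was not tested. Among ligands, Vegfa fell from 32.9 ± 7.76 to 18.4 ± 3.35 CPM (-0.87, adjusted p 0.00382) and Ndp, the Wnt pathway ligand norrin that astrocytes provide to vessels, rose from 12.6 ± 1.98 to 27.5 ± 3.81 CPM (1.10, adjusted p 0.000265). Apln, a tip cell peptide, was lower (-0.74, adjusted p 0.0279). Of 20 genes of endothelial activation, 7 were higher and none lower, led by Csf1 (0.84, adjusted p 0.00245), Adamts1 (0.58, adjusted p 0.016) and Selplg (0.89, adjusted p 0.0161), of which Csf1 and Selplg are known in other cells of the tissue as well. Of 25 barrier genes, 4 were higher, among them the transporters Slco2b1 (0.87) and Slc16a1 (0.57) and the junction protein Jam2 (0.46), and 2 were lower.

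Markers of other cells moved with the lesion in the same libraries, where 7.86% of all genes were called higher. All 15 microglia genes were higher, and their sum went from 848 to 1237 CPM in controls to 1991 to 2552 CPM after ECL. Of 15 astrocyte genes 8 were higher, with sums of 6071 to 6997 and 9078 to 11620 CPM. The 10 choroid and ependymal genes summed to 13.1 to 61.4 CPM in controls and to 9.63 to 6123 CPM after ECL. Of 15 oligodendrocyte genes 4, and of 15 fibroblast and meningeal genes 1, were higher. Their part in the values of the 9 genes, and of the endothelial, activation and barrier genes named above, was not tested.

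**Figure D4:**
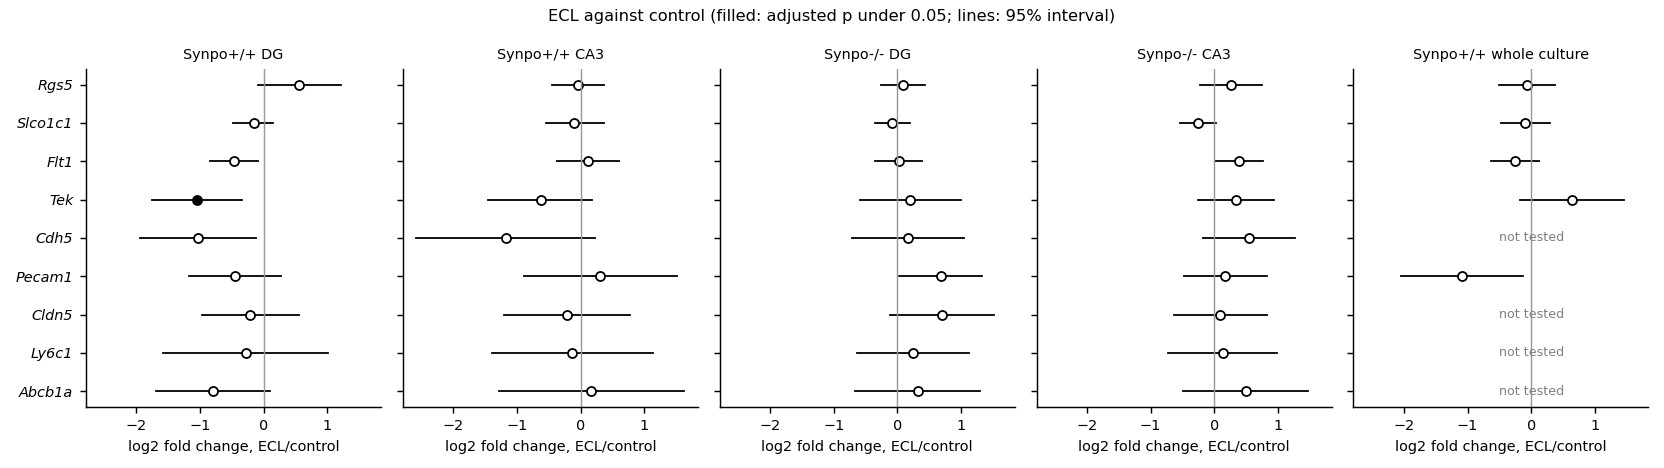
Lesion effect on the 9 genes (log2 fold change, positive where ECL is higher) in DG and CA3 of each genotype and in Synpo+/+ whole-culture inputs; circles are edgeR estimates, filled where the adjusted p is under 0.05, and lines are 95% intervals. Tek in the DG of Synpo+/+ cultures, at -1.05, is the only filled circle, and 4 genes were too low to be tested in the inputs.

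In the CA3 of Synpo+/+ cultures (2 controls and 3 ECL libraries) no member was called, also by DESeq2 and by voom, and 0 of 9 passed an unadjusted p of 0.05, while 1.78% of 22340 genes were called. Tek was at 2.30 and 2.22 CPM in controls and at 1.95, 1.15 and 1.61 CPM after ECL, without overlap, but the difference did not pass (log2 fold change -0.63, SE 0.365, adjusted p 0.314). Rgs5 differed by -0.04 (SE 0.184). Plvap, a protein of endothelial fenestrae, was higher (4.96 ± 0.151 to 12.1 ± 2.03 CPM, log2 fold change 1.19, adjusted p 0.0307), and Vwf, the von Willebrand factor of endothelial granules, was lower (8.14 ± 2.36 to 3.61 ± 0.486 CPM, -1.28, adjusted p 0.0409).

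In the DG of Synpo-/- cultures no member was called by edgeR, DESeq2 or voom, where 8.53% of 23310 genes were called, and 1 passed an unadjusted p of 0.05. Here 8 of the 9 values were positive, with a median of 0.20 (0.01 over all genes). Tek had 0.55 (lowest), 1.44 (median) and 2.78 CPM (highest) in controls and 2.07, 2.21, 1.5 and 1.52 CPM after ECL, inside the control range (log2 fold change 0.20, adjusted p 0.832). Pecam1 had 0.55 to 1.61 CPM in controls and 1.84, 0.879, 2.12 and 1.91 CPM after ECL (0.68, adjusted p 0.203). Among the list genes Ecscr (1.03, adjusted p 0.00141), Ndp (0.81, adjusted p 0.00156) and the pericyte ligand Angpt1 (0.59, adjusted p 0.00195) were higher and Vegfa (-0.86, adjusted p 0.00011) and Apln (-0.56, adjusted p 0.0485) lower. Of 20 activation genes 5 were higher, the oxysterol enzyme Ch25h with a log2 fold change of 2.15 (adjusted p 0.000915). In the same libraries 11 of 15 microglia genes (median log2 fold change 0.76), 9 of 15 astrocyte genes (0.50), 4 of 15 oligodendrocyte genes (0.38) and 4 of 8 choroid and ependymal genes (2.06) were higher, the last 0 of 8 without the Ttr-rich library. Their part in the values of the vessel genes was not tested. In the CA3 of Synpo-/- cultures no member was called by any of the 3 tools, 1 passed an unadjusted p of 0.05 (Flt1, 0.39, adjusted p 0.684), and 0.077% of 20772 genes were called.

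Whether the lesion effect differed between genotypes was tested directly. In DG the difference of log2 fold changes (Synpo-/- minus Synpo+/+) was 1.23 for Tek (SE 0.517, 95% interval 0.17 to 2.29, p 0.0251, adjusted p 0.478) and 1.10 for Pecam1 (SE 0.459, p 0.0242, adjusted p 0.478). It was positive for 8 members, with a median of 0.86, and no member was called by edgeR, DESeq2 or voom, where 0.00381% of 26245 genes were called. In CA3 it was 1.69 for Cdh5 (SE 0.697, p 0.0244, adjusted p 0.231), no member was called by the same tools, and 0.0% of 26821 genes were called. No member was called by the 3 tools in the test of whether the lesion effect differed between DG and CA3. In Synpo+/+ cultures 0.0% of 27783 genes and in Synpo-/- cultures 1.12% of 25435 genes were called there, and 0 members had an unadjusted p under 0.05 in either.

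The genotypes were compared in each region and lesion state by their labels, although Synpo counts were no lower under the Synpo-/- label, and no member was called in any of the 4 comparisons by edgeR, DESeq2 or voom. In non-lesioned DG, Rgs5 was at 99.0 ± 25.7 CPM (SD, n = 4) in Synpo+/+ and 153 ± 35.9 CPM (SD, n = 7) in libraries labelled Synpo-/- (log2 fold change 0.60, SE 0.185, p 0.00471, adjusted p 0.215). Tek was at 3.0 ± 0.744 and 1.53 ± 0.869 CPM (-0.99, SE 0.369, p 0.016, adjusted p 0.25), and Pecam1 at -0.71 (adjusted p 0.307). In this comparison 3 members had an unadjusted p under 0.05 and 0.0166% of 24143 genes were called. In lesioned DG 1 member had an unadjusted p under 0.05 (Slco1c1, 0.29, adjusted p 1.0) and 0.0166% of 24100 genes were called. In CA3, 2 members had one in controls (Pecam1, 0.83, and Cdh5, -0.95, with adjusted p 0.267 and 0.236) and 0 after ECL, where 0.00413% of 24203 and 0.00891% of 22447 genes were called.

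In whole cultures the members were at other levels than in the dissected regions, and as RNA of those libraries was isolated from pooled lysates and their counts were scaled apart, the values are set side by side without a test. Rgs5 was at 35.6 to 84.1 CPM in the 10 Synpo+/+ inputs, above the CA3 median (43.8 CPM) in 8 of them and below the DG median (142 CPM) in all 10. Slco1c1 was at 33.0 to 81.3 CPM in inputs and 12.6 to 37.8 CPM in regional libraries, and the astrocyte list summed to 21002 to 38378 CPM in inputs and 6071 to 12357 CPM in regional libraries. The other 7 members together held 4.99 to 7.75 CPM in inputs and 8.43 to 25.5 CPM in regional libraries. In inputs Cldn5 had 1 to 8 counts, Cdh5 1 to 12, Ly6c1 0 to 11 and Abcb1a 0 to 12, too few to be tested.

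ECL called none of the 5 members tested in inputs by edgeR, DESeq2 or voom, where 5.61% of 17951 genes were called, and 1 had an unadjusted p under 0.05. That was Pecam1, with 1.06, 0.887, 0.501, 0.454 and 0.861 CPM in controls and 0.539, 0.0791, 0.208, 0.631 and 0.316 CPM after ECL (log2 fold change -1.09, SE 0.446, adjusted p 0.188). Tek, lower in the DG of Synpo+/+ cultures, was at 0.64 here (SE 0.379, adjusted p 0.386). Ecscr (0.99, adjusted p 0.0313) and Ndp (0.55, adjusted p 0.0125) were higher after ECL in inputs as well, and Hey1, a Notch target of endothelium and other cells, was lower (-1.03, adjusted p 0.0197). Of 15 microglia genes 6 were called higher in inputs, where 2.45% of all genes were. Their part in the values of the vessel genes was not tested.

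The coIP was compared with the input of the same lysates, in a main test that did not use the pairing. In non-lesioned Synpo+/+ cultures Flt1 had 4.33, 5.87, 5.6, 5.17 and 5.02 CPM in inputs and 9.8, 11.1, 8.18, 9.02 and 8.06 CPM in coIPs. Every coIP exceeded every input, with means of 5.2 ± 0.592 and 9.22 ± 1.24 (SD, n = 5) and a log2 fold change of 0.85 (SE 0.144, adjusted p 0.000174). Tek had 0.212, 0.296, 0.273, 0.59 and 0.304 CPM in inputs and 1.05, 0.302, 1.14, 0.82 and 0.453 CPM in coIPs, from 5 to 24 counts a library, with overlapping ranges (1.16, SE 0.427, adjusted p 0.032). The Tek call held in 7 of 16 alternatives (adjusted p 0.0103 to 0.0873), that of Flt1 in all 16. These 2 of the 5 members tested were called, against 55.0% of 18222 genes. With the lysate as a block, Slco1c1 was called as well (log2 fold change 0.31, adjusted p 0.00534). Rgs5 was at 53.8 ± 20.5 CPM in inputs and 49.3 ± 14.7 in coIPs (-0.10, adjusted p 0.737).

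Flt1 was also higher in the coIPs from cultures labelled Synpo-/-, with 5.36 and 4.3 CPM in inputs and 13.3 and 7.01 CPM in coIPs (log2 fold change 1.04, SE 0.289, adjusted p 0.0171). Abcb1a had 0.11 and 0.0495 CPM in inputs (5 and 2 counts) and 0.812 and 0.546 CPM in coIPs (37 and 31 counts), a log2 fold change of 2.99 (SE 0.736, adjusted p 0.00924). They were 2 of the 9 members tested, and 31.4% of 20892 genes were called. With the lysate as a block, paired by preparation number, Cdh5 passed too (1.68, adjusted p 0.0481). Neither call held without input replicate 2 or without coIP replicate 1 (adjusted p 0.0612 to 0.19), and without coIP replicate 1 the log2 fold change of Flt1 was 0.49. Whether the enrichment differed between genotypes was not tested, and the lesion state of the Synpo-/- lysates is not known.

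Paralogs can take reads of 2 members. Of the 31-base words of Ly6c1 transcripts, 33.0% also occur in Ly6c2, and 21.7% of those of Abcb1a occur in Abcb1b. Ly6c2 had 0 to 15 counts in regional libraries and 0 in all 24 whole-culture libraries. Abcb1b, at 4.45 to 7.94 CPM in regional libraries, exceeded Abcb1a (0.212 to 2.0 CPM) in every group, and it was not called in any lesion, region or genotype comparison. In the Synpo+/+ coIP Abcb1b was higher than in the input (log2 fold change 0.59, SE 0.198).

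The endothelial members tended to vary together over the pooled regional libraries, but less evenly within single groups. Over the 39 regional libraries, with the group mean subtracted from each log2 CPM, all 21 pairs among the 7 members other than Rgs5 and Slco1c1 had a positive Pearson r, from 0.0418 to 0.577 with a median of 0.281. Tek and Cdh5 had r = 0.577 (permutation p 0.00129) and rho = 0.588 (permutation p 0.00078), and r = 0.675 without the 2 libraries farthest from the median. Cdh5 and Abcb1a had r = 0.56 (permutation p 0.00226) and rho = 0.569 (permutation p 0.0016), and r = 0.528 without such libraries. These 2 of the 36 pairs tested passed by r (adjusted p 0.0407 for each) and 4 by rho, and none passed within the libraries of either genotype alone. Tek and Cdh5 had r of 0.479 to 0.668 within each of the 4 groups that had 6 or more libraries, and Cdh5 and Abcb1a of 0.199 to 0.743. These 2 pairs had the highest pooled r. All pairs among the 7 were positive in Synpo-/- CA3 ECL libraries, but each of the other groups of that size held negative ones. Cldn5 and Abcb1a had r of -0.854 to 0.906 over these groups, and Cldn5 and Pecam1 of -0.608 to 0.563.

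Neither Rgs5 nor Slco1c1 joined them. Rgs5 had r of -0.151 to 0.238 with the other 8 members and Slco1c1 of -0.494 to 0.217, positive with Rgs5 only, and no pair with either passed. Low counts weaken such values, and the libraries of a pair share depth and dissection.

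**Figure D5:**
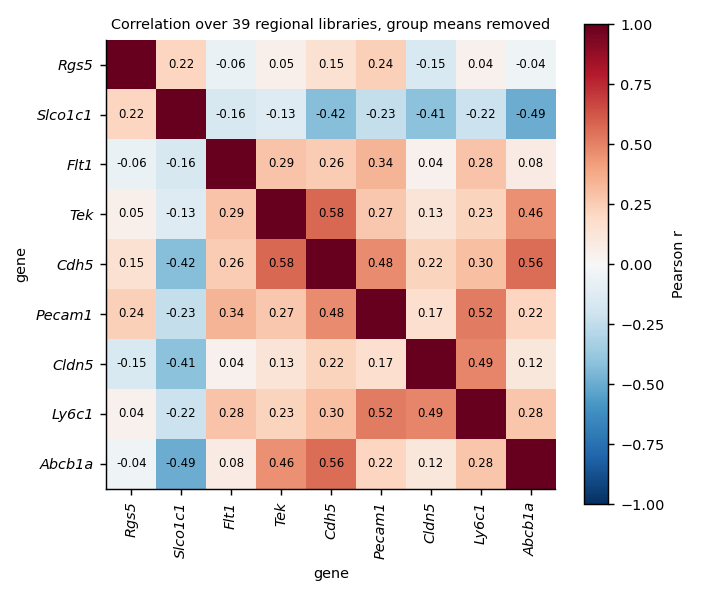
Pearson r between the 9 genes over 39 regional libraries after subtraction of group means (log2 CPM; colour and printed value give r). Values among Flt1, Tek, Cdh5, Pecam1, Cldn5, Ly6c1 and Abcb1a are all positive, up to 0.577, and most of those with Slco1c1 are negative, down to -0.494.

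The 10 genes whose level most resembled the mean of Cldn5, Pecam1, Flt1, Tek, Cdh5 and Ly6c1 were sought among 14587 genes of at least 2 CPM, again over 39 libraries with group means removed. They were Esrra (r = 0.70), Adgrl4 (0.688), Rnf207 (0.632), Gm4211 (0.621), Vav2 (0.619), Dpysl5 (0.613), 2610011E03Rik (0.597), Auts2 (0.593), Gm29154 (0.592) and Limk1 (0.589). Adgrl4, an adhesion receptor of endothelium, was the only one on the endothelial list. The 14 genes of that list with a value had a median r of 0.235, against -0.0772 over all 14587 genes. The 8 mural genes with a value had a median r of -0.0118, the highest being 0.497 for the pericyte receptor Pdgfrb.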

How the data were processed

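RNA was sequenced from dissected DG or CA3 tissue (39 libraries) and from inputs and coIPs of pooled cultures (24 libraries). The authors trimmed reads with cutadapt 3.5, aligned them to mm10 with STAR 2.7.8a, and counted exon reads per gene with featureCounts 2.0.1 without regard to strand, using GENCODE M25 as gene model and keeping libraries with mostly unique mapping. The deposited values are raw counts per gene symbol, and 107 symbols cover several gene identifiers.

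Counts were tested with the quasi-likelihood test of edgeR 4.0.16 (R 4.3.3) after filterByExpr and TMM scaling, with only the groups of a comparison in each fit and Benjamini-Hochberg adjustment over all genes tested; a gene was called at an adjusted p under 0.05. Levels are CPM with TMM scaling, computed for regional and whole-culture libraries apart, so they are not compared by a test. Alternatives used DESeq2 1.42.0, voom (limma 3.58.1), other scaling, filters and sample choices. Correlations used log2(CPM + 0.5) and 100000 permutations within groups, two-sided. Scripts were tested on simulated data.

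The 9 members and the 14 gene lists were chosen with earlier results of these data known. All members are reported. From each list up to 3 called genes with the smallest p were eligible to be named in lesion comparisons and up to 2 in region and genotype comparisons, together with the 10 genes most alike and the paralogs. Prox1, Ttr and Synpo describe libraries and were chosen outside that rule, as was Pdgfrb between regions. Same-numbered coIP and input libraries were taken as coming from one lysate. Their deviations from the group means correlated at 0.189 to 0.442 in the 5 Synpo+/+ control pairs and at 0.0456 in the 2 Synpo-/- pairs. The replicate numbers of the Synpo-/- lysates are crossed between labels, and the preparation number was used. Elsewhere the numbers were not taken as pairs. Between DG and CA3 of Synpo-/- controls, same-numbered libraries correlated at -0.0151 to 0.54. Whether such libraries come from one culture is not stated. Regional replicates are labelled as biological replicates, each from 1 culture; that cultures came from separate animals is not stated, so p-values measure the spread between these cultures. No 2 libraries of a group agreed within sampling noise. The Synpo+/+ ECL coIPs entered no comparison.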

Additional observations from a re-analysis of the deposited data

Results flagged for a closer look

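Dixon's test at 95% was run on 90 groups of 4 to 10 libraries, and 5 values stood apart from their group, where chance flags about 1 in 20. Rgs5 was low in Synpo+/+ DG ECL replicate 5, at 40.8 CPM against 134.5 to 195.7 CPM in the other 6, in the library with a CA3 level of Prox1. Abcb1a was high in Synpo+/+ DG ECL replicate 1, at 1.27 CPM (25 counts) against 0.389 to 0.738 CPM. In the Synpo+/+ control inputs, Tek was high in replicate 4 (0.59 CPM, 13 counts, against 0.212 to 0.304 CPM), as was Ly6c1 (0.499 CPM, 11 counts, against 0.0845 to 0.17 CPM). Abcb1a was high in replicate 5 of the same group (0.608 CPM, 12 counts, against 0.137 to 0.272 CPM).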

How the results depend on the processing

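No member called in a main fit changed direction under any alternative in which it was tested. The gene lists were not part of this check, and some of their medians changed sign. The median of the choroid and ependymal list after ECL in Synpo+/+ DG was 1.26, and -0.19 without the Ttr-rich libraries. The number of members called after ECL in Synpo+/+ DG (1) was 3 with voom, 2 with the replicate block (Rgs5, 0.73, adjusted p 0.00475, and Tek), 0 among genes with a mean normalised count over 300, where Tek is not kept, and 0 without the Ttr-rich libraries. It was 0 to 2 when 1 library was left out. Between regions it was 0 in Synpo+/+ controls (1) with all 8 groups in one fit and 0 to 1 with a library left out. In Synpo+/+ ECL cultures (1) it was 2 with voom and 0 to 1 with a library left out. It was 0 there without the Ttr-rich libraries, where 0 of 10 granule cell genes were called as well. In Synpo-/- controls (5) it was 2 among genes with a mean normalised count over 300 and 4 to 5 with a library left out, and in Synpo-/- ECL cultures (2) 2 to 3. In the Synpo+/+ coIP (2) it was 1 with no filter, 1 with voom, 3 with the replicate block and 1 to 2 with a library left out. In the Synpo-/- coIP (2) it was 1 with the length trend removed, 3 with the replicate block and 0 to 3 with a library left out, where the lone library of an arm is assumed to vary like the others. Of the 36 correlated pairs 2 passed, against 0 with Synpo+/+ libraries not used and 0 with Synpo-/- libraries not used. Without the library with a CA3 level of Prox1, 5 pairs with a positive r and 1 with a negative r passed. The choices on the Ttr-rich and CA3-like libraries were made after seeing the data. Outside these cases the cause of a change was not tested. With the replicate block Ly6c1 was called between regions in Synpo-/- ECL cultures (-1.65, adjusted p 0.0395). Apart from this and the added calls of Rgs5, Slco1c1 and Cdh5 given above, the block changed no call of a member. Counts of 2 to 98 a regional library limit the precision of 6 members.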
